A study of Mus musculus with 18 samples.

Results

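The 6 Reg family genes listed in mouse spleen, Reg1, Reg2, Reg3a, Reg3b, Reg3d and Reg3g, were described in 18 spleen RNA-seq libraries of a study on streptozotocin (STZ) diabetes and fecal microbiota transplantation (FMT). The members were chosen by gene symbol from the 19326 rows of the expression table, after the family had been noticed among the pancreatic transcripts that were high in STZ animals compared with control animals. All 6 were found, and all 6 reached 1 RPKM (reads scaled to the length of the gene and to the mapped reads of the library) in at least 3 libraries, the limit for testing, which 12905 genes passed. Because the STZ against control comparison led to the family, it is given here as values without a test. All animals were ICR mice of 10 weeks, with 3 libraries in each of 6 groups. Con animals were controls. Animals of the A10 group were given AOS (alginate oligosaccharide, sugar chains cut from an algal polymer) at 10 mg/kg. STZ animals received streptozotocin, a toxin that enters the insulin-producing beta cells and kills them, and STZ-A10 animals received STZ and AOS. Con-FMT and A10-FMT animals received STZ followed by pooled intestinal content from control donors or from donors given AOS at 10 mg/kg. STZ is a chemical model of type 1 diabetes, and the route by which A10 and STZ-A10 animals received AOS is not given in the sources used here. The 3 libraries of a group are listed as separate samples, so the p-values measure the spread between these samples.

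Reg proteins are small secreted proteins with a C-type lectin fold. Acinar cells of the pancreas, the cells that secrete trypsin, carboxypeptidase and other digestive enzymes, make Reg1 in health, and Reg1 is also called lithostathine or pancreatic stone protein. Reg3b, also known as pancreatitis-associated protein, is a classical acute-phase product of injured acinar cells, while Reg3g is best known as an antibacterial lectin of the gut epithelium that interleukin-22 induces through STAT3. The spleen is not a usual source of these proteins, and the tail of the pancreas lies against it in the mouse. Trypsin 2 (Prss2) and carboxypeptidase A1 (Cpa1) were therefore followed beside the family as acinar transcripts.

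The 6 genes lie in a cluster of 98.2 kb on chromosome 6 (GENCODE M21, GRCm38), in the order Reg3b, Reg3d, Reg3a, Reg2, Reg1 and Reg3g. Reg3b covers chr6:78370657-78373466, Reg3a chr6:78380709-78383827, Reg2 chr6:78395623-78408106 and Reg1 chr6:78422711-78428667, all on the plus strand. Reg3d (chr6:78375874-78378865) and Reg3g (chr6:78466269-78468872) are on the minus strand. The transcripts of Reg1 and Reg2 were the most alike, with 81.45% identity over 674 aligned bases, followed by Reg3a and Reg3b with 75.86% over 758 bases. No pair of members shared an exact stretch of 35 bases except Reg3b and Reg3g, which shared 1, so exact matches would hardly move reads between members. How many mismatches the alignment allowed at these genes was not tested.

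Sequences just upstream of the RefSeq start (GRCm38.p6, plus strand) are shown for Reg1, which followed the digestive enzymes, and for Reg3b and Reg3a, which departed from them. Where another annotated transcript has an exon in the 250 bases before the start, the exon was left out, so that the Reg1 stretch is chr6:78425733-78425929, the Reg3b stretch chr6:78370707-78370860 and the Reg3a stretch chr6:78380459-78380708. Capitals mark matches, on either strand, to the E-box CACCTG and the T-box TTTCCC bound by the acinar factor PTF1 and to the STAT letters TTCNNNGAA.
Reg1: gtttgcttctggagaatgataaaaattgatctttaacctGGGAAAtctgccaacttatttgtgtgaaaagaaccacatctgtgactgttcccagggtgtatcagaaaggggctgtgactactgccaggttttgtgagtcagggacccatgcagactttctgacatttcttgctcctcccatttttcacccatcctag
Reg3b: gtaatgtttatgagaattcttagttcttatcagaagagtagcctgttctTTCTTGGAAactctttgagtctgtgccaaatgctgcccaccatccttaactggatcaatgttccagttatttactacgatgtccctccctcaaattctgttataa
Reg3a: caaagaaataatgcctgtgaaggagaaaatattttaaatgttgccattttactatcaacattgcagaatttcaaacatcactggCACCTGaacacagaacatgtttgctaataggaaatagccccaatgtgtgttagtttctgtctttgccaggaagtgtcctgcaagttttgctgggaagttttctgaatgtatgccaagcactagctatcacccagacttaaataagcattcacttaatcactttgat
The Reg1 stretch held a T-box match on the minus strand, the Reg3a stretch an E-box match, and the Reg3b stretch TTCTTGGAA, 129 to 121 bases before the start. Over the whole 250 bases, the STAT letters stood before 2 of the 6 members, Reg3b and Reg3d, and before 7.02% of 32851 RefSeq starts, and in Reg3d this match overlapped a T-box match. CACCTG stood before 4 members (Reg2, Reg3a, Reg3b and Reg3d) and 17.22% of all starts, and TTTCCC before 4 members (Reg1, Reg3b, Reg3d and Reg3g) and 21.95% of all starts. These matches describe letters only, and factor binding was not measured.

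All 18 libraries had the expression of spleen, with the B cell receptor chain Cd79a between 189.92 and 971 RPKM. The sum of 14 spleen genes was lowest in A10-FMT replicate 3 at 709.5 RPKM and lay between 1637 and 2763 RPKM in the other groups. Read depth is unknown, because the table holds no counts, and values under 1 RPKM rest on few reads. Kap, a kidney androgen-regulated gene, was at 13.33 to 25.95 RPKM in every Con and STZ library and at 0.6 RPKM or less in all others, so that Con and STZ libraries stood apart from the other 4 groups, and no batch is given in the labels. The comparisons of STZ with Con, of STZ-A10 with A10 and of A10-FMT with Con-FMT lie within these sets, and the remaining pairs cross them.

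Reg3b was nearly absent without STZ and abundant in STZ, STZ-A10 and Con-FMT spleens, and it was low in A10-FMT spleens. Con libraries had 1.42, 0.22 and 0.12 RPKM, and A10 libraries had 0, 1.48 and 0.69 RPKM (replicates 1, 2 and 3). STZ libraries had 160.4, 31.97 and 12.42 RPKM, STZ-A10 libraries 31.21, 39.88 and 79.85 RPKM, and Con-FMT libraries 23.97, 10 and 34.57 RPKM. A10-FMT libraries had 0, 4.19 and 0.2 RPKM. The 9 libraries of the STZ, STZ-A10 and Con-FMT groups were thus all above the other 9, and STZ replicate 1 was the highest. In order of the group means, STZ (68.3 ± 80.4 RPKM, SD, n = 3), STZ-A10 (50.3 ± 25.9) and Con-FMT (22.9 ± 12.3) overlapped each other, and A10-FMT (1.46 ± 2.36), A10 (0.723 ± 0.741) and Con (0.587 ± 0.723) overlapped each other.

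Reg3a, a close relative of Reg3b, had the same division at lower RPKM. Con libraries had 0.29, 0 and 0 RPKM, A10 libraries 0, 0.2 and 0.1 RPKM, and A10-FMT libraries 0, 1.86 and 0.27 RPKM. STZ libraries had 30.4, 3.2 and 3.18 RPKM, STZ-A10 libraries 5.41, 13.98 and 12.87 RPKM, and Con-FMT libraries 8.05, 3.58 and 24.42 RPKM. Again the 9 STZ, STZ-A10 and Con-FMT libraries did not overlap with the other 9.

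Reg3g, the antibacterial lectin, stayed low throughout. It was at 0.43 RPKM or less in Con, at 0.11 RPKM or less in A10 and A10-FMT, and at 3.98, 0.21 and 0.21 RPKM in STZ. STZ-A10 libraries had 0.33, 1.54 and 1.5 RPKM, and Con-FMT libraries had 0.75, 0.66 and 2.9 RPKM. Its STZ and Con libraries overlapped, and most of these values rest on few reads.

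Reg3d, a pancreatic member of the family, had its highest group mean in STZ-A10 (7.82 ± 4.32 RPKM, SD, n = 3), followed by Con-FMT (5.85 ± 2.22), A10-FMT (5.29 ± 8.38), STZ (3.96 ± 3.81), Con (0.777 ± 0.918) and A10 (0.51 ± 0.62). Each group overlapped the next in this order. The A10-FMT mean came mainly from replicate 2, with 14.97 RPKM against 0.31 and 0.59 RPKM in replicates 1 and 3.

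Reg2, which is also expressed in pancreas, was at 17.97, 2.13 and 0 RPKM in Con and at 0, 3.58 and 4.66 RPKM in A10. Its values were 65.55, 8.02 and 15.24 RPKM in STZ, 31.56, 62.52 and 95.05 RPKM in STZ-A10, 42.55, 19.22 and 80.14 RPKM in Con-FMT, and 0.49, 31.45 and 2.51 RPKM in A10-FMT. Groups that were neighbours by mean overlapped in every case.

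Reg1 was the most abundant member, with a mean of 93.1 RPKM over the 18 libraries, compared with 26.8 for Reg2 and 24 for Reg3b, all per kilobase of gene. Con libraries had 53.05, 8.88 and 0.23 RPKM, A10 libraries 0.91, 18.09 and 10.17 RPKM, and STZ libraries 111.24, 36.08 and 46.19 RPKM. STZ-A10 libraries had 127.48, 172.68 and 260.45 RPKM, Con-FMT libraries 73.88, 41.57 and 85.35 RPKM, and A10-FMT libraries 3.82, 592.17 and 33.17 RPKM. The highest and the lowest Reg1 values among STZ-treated animals were therefore in the same A10-FMT group.

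**Figure D1:**
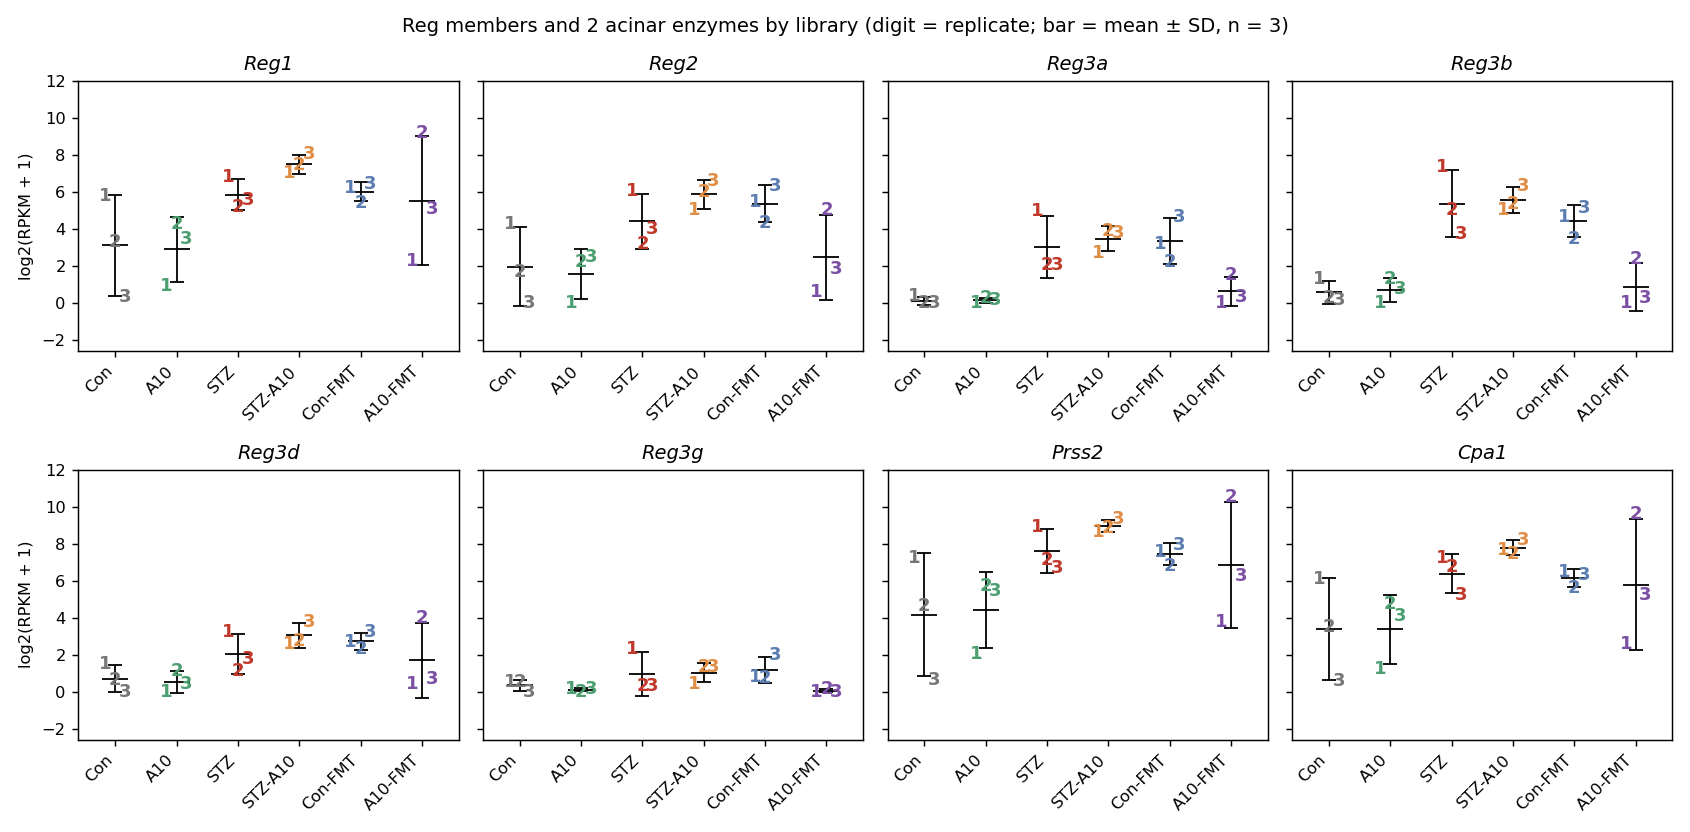
Expression of the 6 Reg genes, Prss2 and Cpa1 as log2(RPKM + 1) on the vertical axis, by group on the horizontal axis, with each digit a library (its replicate number) and bars for the mean ± SD of 3 libraries. Reg3a and Reg3b are low in all Con, A10 and A10-FMT libraries, whereas Reg1 has the profile of Prss2, with A10-FMT replicate 2 at 592.17 RPKM.

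The acinar enzymes also varied widely between libraries, and the Reg genes differed in how closely they followed them. Prss2 was at 147.76, 23.77 and 0.52 RPKM in Con, at 3.1, 51.94 and 42.73 RPKM in A10 and at 486.42, 139.68 and 101.25 RPKM in STZ. It was at 401.78, 466.78 and 637.61 RPKM in STZ-A10, at 186.89, 110.86 and 245.31 RPKM in Con-FMT and at 12.42, 1450.72 and 74.56 RPKM in A10-FMT. A10-FMT replicate 2 thus had the highest Prss2 of all libraries, and it had 767.82 RPKM of Cpa1. Across the 18 libraries on the log2(RPKM + 1) scale, Reg1 correlated with Prss2 with Pearson's r = 0.990 (Spearman's rho = 0.986, permutation adjusted p = 2e-05 for both), Reg2 with r = 0.909 (rho = 0.921) and Reg3d with r = 0.894 (rho = 0.960), with the same adjusted p. For these 3 members the raw p was 1e-05, the smallest that 100000 permutations can give. The 18 libraries include the Con and STZ libraries in which the family was noticed among pancreatic transcripts. The correlations and their p-values, for all 6 members, are therefore not independent of that choice. The r was 0.746 for Reg3b (rho = 0.840, permutation adjusted p = 0.000405 and 4.8e-05), 0.712 for Reg3a (rho = 0.856, adjusted p = 0.000948 and 4.5e-05) and 0.530 for Reg3g (rho = 0.671, adjusted p = 0.0238 and 0.00302), adjusted over the 6 members. Without Con replicate 3 and A10 replicate 1, which were farthest from the median of Prss2, r was 0.987 for Reg1, 0.876 for Reg2, 0.915 for Reg3d, 0.727 for Reg3b, 0.708 for Reg3a and 0.504 for Reg3g. With group means removed, r was 0.986 for Reg1, 0.938 for Reg2, 0.828 for Reg3d, 0.712 for Reg3b, 0.499 for Reg3a and 0.362 for Reg3g. Reg3g no longer passed (permutation adjusted p = 0.14), and Reg3a was near the threshold (permutation adjusted p = 0.0405). The permutation moved all 18 residuals freely although 6 group means had been taken out, so these p-values are too small.

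**Figure D2:**
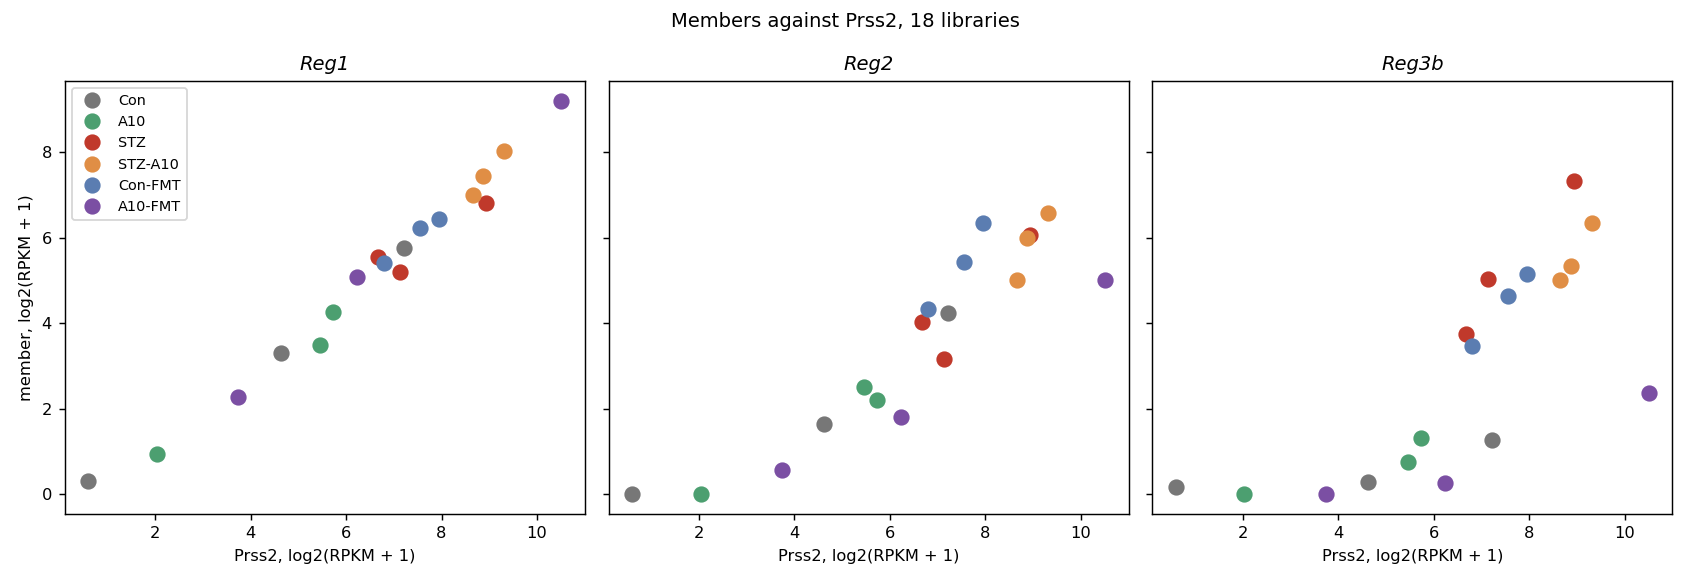
Reg1, Reg2 and Reg3b (vertical axes) against Prss2 (horizontal axes), all as log2(RPKM + 1), with a point for each of the 18 libraries coloured by group. Reg1 lies along a line (r = 0.990), while the A10-FMT library with the highest Prss2 (1450.72 RPKM) has only 4.19 RPKM of Reg3b.

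Dividing by Prss2 separated these behaviours. The ratio was taken in the 16 libraries with at least 5 RPKM of Prss2, which leaves out A10 replicate 1 at 3.1 RPKM and Con replicate 3 at 0.52 RPKM, while the lowest library kept was A10-FMT replicate 1 at 12.42 RPKM. These ratios are descriptions without a test. Reg1 lay between 22.87% and 45.62% of Prss2 in all 16, a range of 1.995-fold. Among 28 digestive and acinar genes that were never at 0, the corresponding range had a median of 2.652-fold and ran from 1.793-fold for pancreatic lipase (Pnlip) to 143.3-fold for Prss3, and of these 28 genes only Pnlip had a narrower range than Reg1. Reg3d ranged over 4.555-fold and Reg2 over 15.07-fold. Reg3b ranged over 122.9-fold with 1 library at 0, Reg3a over 77.64-fold with 2 at 0, and Reg3g over 238.6-fold with 3 at 0, in each case among the values above 0. Ratios that differed with STZ were not confined to Reg genes. Prss3 ran from 0.4207% of Prss2 in Con replicate 2 to 60.3% in Con-FMT replicate 2. The trypsin gene Try5 ran from 56.12% to 286% in the same libraries. Both ratios were lower in every Con and A10 library kept than in every STZ-treated library, A10-FMT included.

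Per Prss2, Reg3b was at 32.98%, 22.89% and 12.27% in STZ, at 7.768%, 8.544% and 12.52% in STZ-A10 and at 12.83%, 9.02% and 14.09% in Con-FMT. In the 2 Con libraries it was at 0.961% and 0.9255%, and in the 2 A10 libraries at 2.849% and 1.615%. A10-FMT libraries had 0%, 0.2888% and 0.2682%, below both groups without STZ, Con and A10. If the lowest Con-FMT ratio, 9.02%, held in the A10-FMT libraries, their Prss2 would correspond to 1.12, 131 and 6.73 RPKM of Reg3b, compared with the measured 0, 4.19 and 0.2 RPKM. All 3 measured values were below these, which follows from the ratios above and is no separate test. The scaling takes the ratio as fixed at every level of Prss2, which was not tested, and the replicate 1 values of 1.12 and 0 RPKM are both near the floor.

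Reg3a per Prss2 was 2.291% to 6.25% in STZ libraries, 1.347% to 2.995% in STZ-A10 libraries and 3.229% to 9.955% in Con-FMT libraries, against 0% to 0.1963% in Con, 0.234% to 0.3851% in A10 and 0% to 0.3621% in A10-FMT. Reg2 per Prss2 differed mainly between the transplant groups, with 17.34% to 32.67% in Con-FMT and 2.168% to 3.945% in A10-FMT. The other 4 groups lay between these, from 5.742% to 15.05%. Reg3d had its highest ratios in Con-FMT as well, at 2.879% to 3.518%, and its other groups lay between 0.7723% and 2.496%.

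Cpa1 as the denominator gave the same picture for Reg3b, with 30.58% to 109% of Cpa1 in STZ libraries, 15.44% to 26.76% in STZ-A10 libraries, 20.76% to 43.75% in Con-FMT libraries, 2.103% to 2.109% in Con, 4.275% to 5.712% in A10 and 0% to 0.551% in A10-FMT. Reg1 spread more against Cpa1 than against Prss2 in STZ, from 34.52% to 129.3%, and lay between 63.01% and 108% in the other groups. Reg2 was at 39.89% to 101.4% of Cpa1 in Con-FMT and at 4.096% to 10.06% in A10-FMT.

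**Figure D3:**
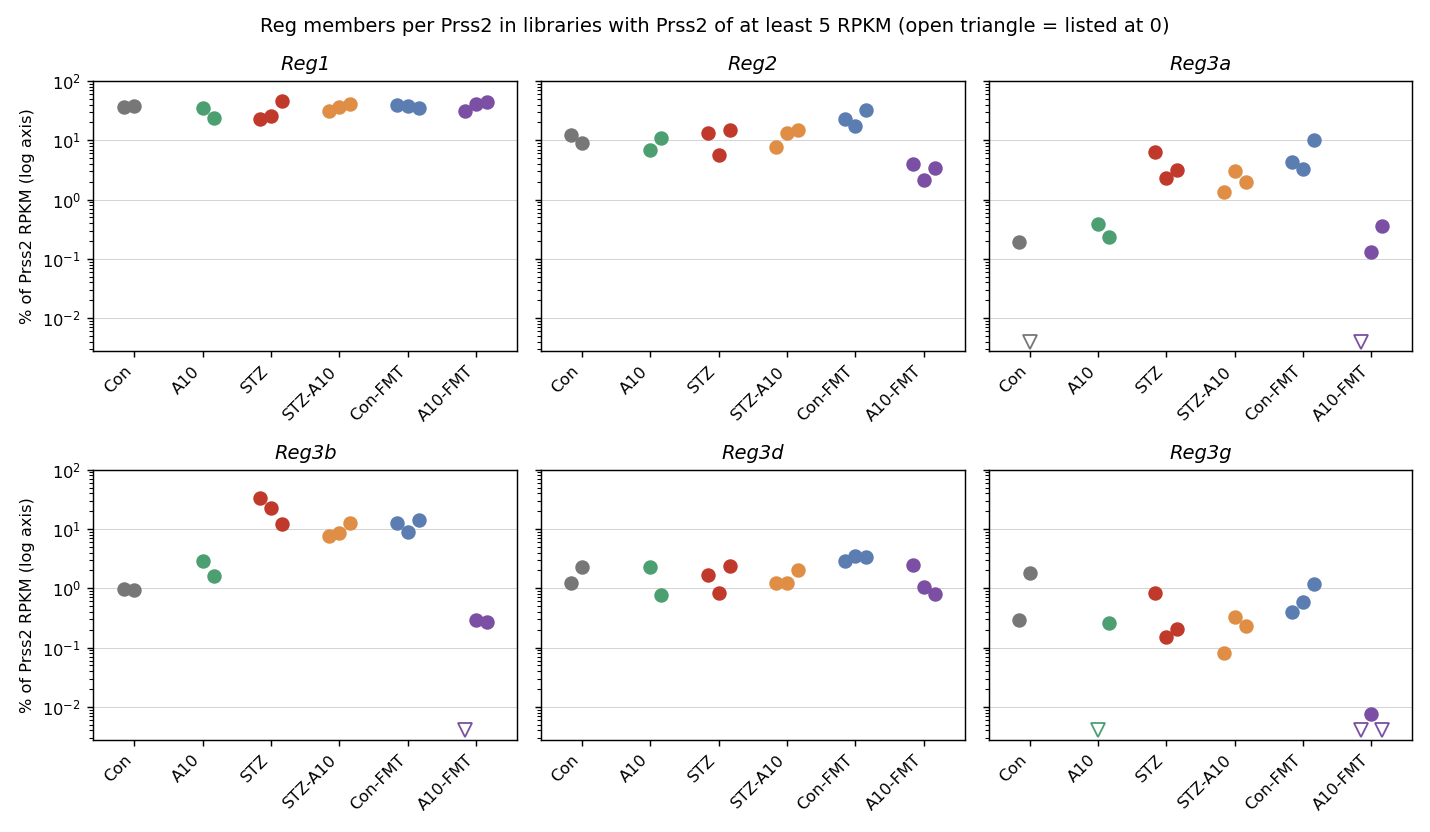
Each Reg gene as a percent of Prss2 RPKM (log axis) by group, with a point per library for the 16 libraries with at least 5 RPKM of Prss2 and open triangles near the lower edge for libraries listed at 0. Reg1 stays between 22.87% and 45.62%, and Reg3b lies at 7.768% or above in STZ, STZ-A10 and Con-FMT and at 2.849% or below in the other groups.

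STZ against Con, the comparison through which the family was noticed, gave log2 fold changes of 4.80 for Reg3b, 2.91 for Reg3a, 2.74 for Reg1, 2.45 for Reg2, 1.33 for Reg3d and 0.61 for Reg3g on the log2(RPKM + 1) scale, and 3.43 for Prss2. This scale understates the change of genes with low values. Reg3a and Reg3b were higher in all STZ than in all Con libraries, as were 5.77% of all genes tested.

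Whether STZ had the same effect in animals that received AOS was examined by comparing STZ-A10 with A10, which shares no library with the first comparison. Reg3b rose in STZ-A10, with a log2 fold change of 4.88 (SE 0.785, limma adjusted p = 0.0322), and it was the only member past the threshold, with 0.0542% of all genes tested passing. The other log2 fold changes were 4.60 for Reg1 (SE 1.44, adjusted p = 0.23), 4.30 for Reg2 (SE 1.16, adjusted p = 0.16), 3.33 for Reg3a (SE 0.697, adjusted p = 0.0781), 2.52 for Reg3d (SE 0.768, adjusted p = 0.212) and 0.93 for Reg3g (SE 0.451, adjusted p = 0.511). All 6 members were higher in every STZ-A10 than in every A10 library, compared with 7.69% of all genes, and 5 of 6 had an unadjusted p under 0.05, compared with 10.2%. Reg3a and Reg3g reached 1 RPKM only in STZ-treated libraries, so they passed the filter through groups that received STZ. The acinar genes were measured beside the members, and Prss2 and Cpa1 were also higher in every STZ-A10 than in every A10 library. Prss2 differed by 4.54 (SE 1.59, adjusted p = 0.289), and of 31 exocrine pancreas genes tested 0 passed after limma adjustment and 26 had an unadjusted p under 0.05, with a median log2 fold change of 3.99 compared with -0.03 over all genes. With Prss2 as a covariate the Reg3b difference was 3.28 (SE 0.707) and its adjusted p was 0.179. The Reg3b call held in 8 of 18 fits that each left out 1 library and was lost without any A10 or STZ-A10 library, Con replicate 2 or 3, Con-FMT replicate 1 or A10-FMT replicate 1 (highest adjusted p = 0.195). It was also lost with a pseudocount of 0.1 (adjusted p = 0.0806), with no filter on low values (adjusted p = 0.0631) and with the replicate number as a block (adjusted p = 0.0659).

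The effect of the donor was examined by comparing A10-FMT with Con-FMT, in which both groups received STZ and a transplant. No gene passed the threshold by limma (0% of all genes tested), and 4 of the 6 members had an unadjusted p under 0.05, compared with 23.6% of all genes. Reg3b had a log2 fold change of -3.54 (95% interval -5.21 to -1.87, SE 0.785, limma adjusted p = 0.204), Reg3a with -2.73 (-4.21 to -1.24, adjusted p = 0.204), Reg2 with -2.91 (-5.38 to -0.43, adjusted p = 0.204) and Reg3g with -1.12 (-2.08 to -0.16, adjusted p = 0.204). Values of -1.04 for Reg3d and -0.50 for Reg1 had intervals that included 0. Reg3a, Reg3b and Reg3g were lower in all A10-FMT than in all Con-FMT libraries, as were 23.9% of all genes tested, so the number of members that did not overlap is to be read against a comparison in which many genes differed. The median of all genes was itself -0.17 on this scale. The exocrine list had a median of -0.36, with 0 of 31 genes at an unadjusted p under 0.05, and Prss2 differed by -0.61 (95% interval -3.98 to 2.77). With Prss2 as a covariate Reg3b was at -3.33 (SE 0.573, adjusted p = 0.172) and Reg2 at -2.49 (SE 0.425, adjusted p = 0.172). Without A10-FMT replicate 2, the library with the most acinar transcripts, 4 members (Reg2, Reg3a, Reg3b and Reg3d) passed, with a lowest adjusted p of 0.0351, in a fit in which 20.3% of all genes passed. Without A10-FMT replicate 3 the lowest adjusted p of a member was 0.865, and without any single Con-FMT library it was 0.327 to 0.361. Transcripts of other tissues differed between these libraries as well. The sum of 15 liver genes was 228 to 496.6 RPKM in A10-FMT and 114.7 to 172.9 RPKM in Con-FMT. This sum includes Serpina1b, which was at 89.08 to 149.95 RPKM over all libraries. Albumin (Alb) was at 42.32, 32.58 and 174.72 RPKM in A10-FMT and at 8.8, 10.32 and 1.19 RPKM in Con-FMT. The sum of the 14 spleen genes was 709.5 to 2074 and 2232 to 2295 RPKM. The part of liver and spleen transcripts in the Reg differences was not tested.

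A10-FMT was also compared with STZ, whose libraries are those in which the family was noticed as high. This choice favours lower values in any group set against them, so the values are not independent of it. Reg3b had a log2 fold change of -4.50 (SE 0.785, limma adjusted p = 0.08) and Reg3a of -2.42 (SE 0.697, adjusted p = 0.195). No member passed, with 0.00775% of all genes passing, and 2 of 6 members had an unadjusted p under 0.05, compared with 17.2%. Reg3a, Reg3b and Reg3g did not overlap and were lower in A10-FMT, compared with 12.1% of all genes. With Prss2 as a covariate, the Reg3b value was -4.23 (SE 0.574, adjusted p = 0.0186, with 0.101% of all genes passing), and the same dependence on the choice of members applies. The sum of the 15 liver genes was 228 to 496.6 RPKM in A10-FMT and 97.22 to 130.3 RPKM in STZ (median log2 fold change 2.66, with 0 genes past the limma threshold and 13 at an unadjusted p under 0.05). Alb was at 42.32, 32.58 and 174.72 RPKM in A10-FMT and at 0.32, 1.45 and 0.95 RPKM in STZ. The spleen list was at 709.5 to 2074 and 1637 to 2696 RPKM (median -0.56, 0 of 14 above 0). Their part in the Reg values was not tested. The remaining values were -1.95 for Reg2, -0.91 for Reg3g, -0.35 for Reg3d and -0.34 for Reg1.

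**Figure D4:**
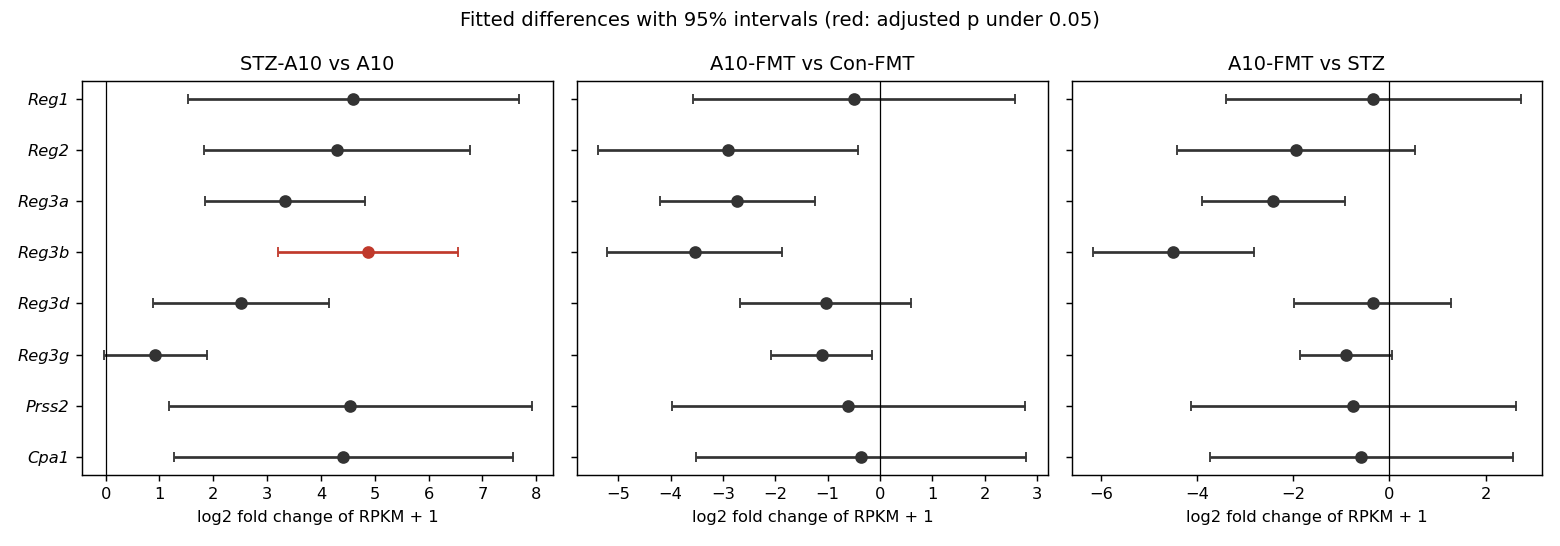
Log2 fold changes on the log2(RPKM + 1) scale (horizontal axes) of the 6 Reg genes, Prss2 and Cpa1 (vertical axis) in 3 comparisons, with 95% intervals from limma and red for an adjusted p under 0.05. Reg3b in STZ-A10 against A10 (4.88) is the only red point, and the Reg1, Prss2 and Cpa1 intervals include 0 in both comparisons of A10-FMT.

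Transplants from control donors, set against the same STZ libraries, gave no member past the threshold against STZ, with log2 fold changes from -0.96 (Reg3b) to 0.96 (Reg2) and adjusted p of 0.97 or more. None of the members had an unadjusted p under 0.05, and 0.00775% of all genes passed after adjustment and 5.24% before it. The 95% interval for Reg3b ran from -2.63 to 0.71, which spans lower and higher values.

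AOS without STZ (A10 against Con) gave log2 fold changes from -0.40 to 0.11 with 0 members past the threshold by limma and 0 at an unadjusted p under 0.05, compared with 0.00775% and 5.25% of all genes. For Reg3b the value was 0.11 with a 95% interval from -1.56 to 1.78. AOS in STZ animals (STZ-A10 against STZ) gave values from 0.07 for Reg3g to 1.63 for Reg1, again with 0 members past the threshold and 0 before adjustment, compared with 0.00775% and 2.93% of all genes. Reg1 was higher in every STZ-A10 than in every STZ library, as were 3.29% of all genes, and Cpa1 was as well. A10 against Con and STZ-A10 against STZ share the Con or the STZ libraries with the comparison that led to the family. The interaction of STZ and AOS, the difference between the STZ effects with and without AOS, contains that comparison itself and is given as a description. It was 0.08 for Reg3b and 1.86 for Reg1, as values without a test.

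The genes with the most similar profile differed between members. Likeness was Pearson's r over the 18 libraries on the log2(RPKM + 1) scale, a description that includes shared tissue content, and the ranking was made among genes outside the family. Within the family, Reg3a and Reg3b were nearest to each other (r = 0.956), Reg3g was nearest to Reg3a (r = 0.882), and Reg2 and Reg3d were nearest to each other (r = 0.933). For Reg1 the nearest were Cel (carboxyl ester lipase, r = 0.995), Rnase1 (pancreatic ribonuclease, r = 0.993) and Pnlip (r = 0.992), and 18 of its 20 nearest genes were on the exocrine pancreas list. Reg2 was nearest to Dmbt1 (a secreted scavenger receptor protein of epithelia, r = 0.942), Try5 (a trypsin, r = 0.920) and Pnliprp1 (a lipase-related protein, r = 0.914), with 17 of 20 on the list. Reg3d was nearest to Dmbt1 (r = 0.959), Cuzd1 (a zymogen granule protein, r = 0.952) and Try10 (r = 0.947), with 16 of 20. Outside the family, Reg3a was nearest to 1810009J06Rik (r = 0.901), Med25 (a Mediator subunit, r = 0.854) and Dmbt1 (r = 0.849), with 5 of 20. Reg3b was nearest to Klf10 (a zinc finger transcription factor, r = 0.888), Cry2 (a clock protein, r = 0.885) and Cd300a (an inhibitory receptor of leukocytes, r = 0.872), with 4 of 20. Outside the family, Reg3g was nearest to Srsf6 (a splicing factor, r = 0.759), 1810009J06Rik (r = 0.736) and Abcb8 (a mitochondrial transporter, r = 0.730), with 0 of 20. These counts cover only genes on the exocrine list, which leaves out 1810009J06Rik and Dmbt1. Any other pancreatic gene outside the list is not counted. Klf10 ranged only from 9.17 to 14.91 RPKM, Cry2 from 2.83 to 6.12 RPKM and Cd300a from 8.33 to 15.28 RPKM. Med25 ranged only from 18.8 to 25.3 RPKM, Srsf6 from 115.61 to 135.07 RPKM and Abcb8 from 5.79 to 9.5 RPKM. 1810009J06Rik was at 0 to 0.2 RPKM in Con and A10 and at 4.15 to 122.34 RPKM in STZ. It was at 8.42 to 41.73 RPKM in STZ-A10 and at 2.97 to 20.62 RPKM in Con-FMT. In A10-FMT it was at 0.35, 22.44 and 1.27 RPKM, so replicate 2 did not share the low Reg3a value of that group.

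Other genes of the Reg pathway were measured from a list of 19 inducers, receptors and STAT3 signalling genes, 12 of which were tested, and none passed in any of the 7 tests in either direction (limma, with 2, 5, 0, 0, 5, 1 and 0 at an unadjusted p under 0.05 in STZ-A10 against A10, A10-FMT against Con-FMT, A10 against Con, STZ-A10 against STZ, A10-FMT against STZ, Con-FMT against STZ and the interaction). Il22, the cytokine that induces Reg3 genes in gut, was at 0.15 RPKM or less in every library, and Il6, an acute-phase cytokine that signals through STAT3, was at 0.73 RPKM or less. Stat3 ranged from 18.66 to 50.08 RPKM, and Extl3, described as a receptor for Reg proteins, from 7.16 to 10.82 RPKM. Socs3, a feedback target of STAT3, was at 11.12, 9.48 and 8.34 RPKM in Con and at 11.96, 11.47 and 12.63 RPKM in A10. It was at 20.39, 13.09 and 11.51 RPKM in STZ and at 26.74, 13.56 and 14.18 RPKM in STZ-A10. In Con-FMT, where Reg3b was high, Socs3 was at 11.13, 9.95 and 12.73 RPKM. In A10-FMT, where Reg3b was low, Socs3 was at 10.72, 11.65 and 14.97 RPKM. The log2 fold change of Socs3 in STZ-A10 against A10 was 0.49 (SE 0.23, limma adjusted p = 0.485). The most abundant genes of the list were Jak1 (64.51 to 111.36 RPKM), Il10rb (24.81 to 50.88 RPKM) and Il17ra (16.96 to 44.79 RPKM). Reg4, the family gene that lies outside the cluster, was listed at 0 in 17 libraries and at 0.09 RPKM in Con replicate 2.

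Markers of other sources of Reg transcripts were followed as well, and no gene of these lists passed in any comparison. Islet genes were scarce, with Ins1 and Ins2, the insulin genes, listed at 0 in all Con, A10, STZ and STZ-A10 libraries, while Ins2 was at 2.26, 1.72 and 0.22 RPKM in Con-FMT and at 0.21, 19.97 and 1.58 RPKM in A10-FMT. Pcsk1, the next most abundant gene of the islet list, was at 0.12 to 0.52 RPKM. Libraries with Reg3b above 10 RPKM in STZ and STZ-A10 held acinar but no insulin transcripts at the depth of this table. Con replicate 1, with 147.76 RPKM of Prss2 and no STZ, held no insulin transcripts either, and STZ kills beta cells. These zeros therefore cannot tell an islet from an acinar source of Reg3b, and the source was not tested. Of the intestinal epithelium list of 16 genes, 4 were tested and its sum was 4.15 to 13.15 RPKM over all libraries, with Lgals4 at 1.9 to 9.05, Itln1 at 0.34 to 2.55 and Guca2b at 0 to 1.87 RPKM, and the structural gene Vil1 did not exceed 0.11 RPKM. The duct and metaplasia list of 14 genes, 5 of them tested, was led by Tff2 (0.17 to 64.12 RPKM), Krt19 (1.28 to 8.59 RPKM) and Krt7 (1.95 to 5.74 RPKM), and Sox9 did not exceed 0.55 RPKM. The exocrine list was led by Ctrb1 (3.3 to 5389.96 RPKM), Try5 (1.22 to 2371.53 RPKM) and Amy2a5 (1.44 to 3464.96 RPKM), and all 3 were highest in A10-FMT replicate 2. The spleen list included Cd79a and Hmox1 (118.86 to 334.82 RPKM), and the liver list was led by Serpina1b (89.08 to 149.95 RPKM), Alb (0.1 to 174.72 RPKM) and Apoa2 (0 to 70.62 RPKM). In these spleen samples, more pancreatic tissue and more Reg RNA per acinar cell cannot be told apart for the absolute values, and the ratios to Prss2 and Cpa1 compare transcripts within a library.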

How the data were processed

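RNA of mouse spleens was poly(A)-selected and sequenced on an Illumina instrument by the authors, who deposited RPKM values for 19326 rows and 18 libraries. According to the study's methods reads were aligned to reference genes with SOAPaligner, whereas the submitters' processing notes name Bowtie 0.12.2 and mm10. The annotation version is not given in the sources used here. RPKM divides reads by gene length and mapped reads, so a large share of pancreatic or erythroid transcripts lowers all other values of a library. The depth of the libraries cannot be read from RPKM, so intervals for counting error are not given. Columns were matched to groups through the labels (0 columns were left over). Of the rows, 6 with 3 repeated names were left out.

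Values were analysed as log2(RPKM + 1) with limma 3.58.1 (trend, two-sided) in R 4.3.3, on 12905 genes with at least 1 RPKM in at least 3 libraries, in a single fit of all 18 libraries with a mean per group. P-values were adjusted by the Benjamini-Hochberg method over all genes, with a threshold of 0.05. The study's own count-based test needs read counts and was not used. Correlations were tested with 100000 permutations (scipy 1.17.1). The test script was tested on simulated data. The members and gene lists were chosen with earlier results of these data known. Named genes were all members, Prss2 and Cpa1, the 3 most correlated genes of each member, pathway genes given as levels and, per list, the 3 with the highest mean RPKM where none passed, except 1 gene that is not reported here. Genes named for their ratio range, Kap, Vil1 and Sox9 were chosen after their values were seen. Positions are from GENCODE M21 and upstream sequences from RefSeq, where all 6 members were matched. Other pseudocounts, filters, normalizations, array weights, a replicate block, a Prss2 covariate and leaving out each library were tried.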

Additional observations from a re-analysis of the deposited data

How the results depend on the processing

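The replicate numbers shared by the groups were not taken to pair the samples. In no comparison did every same-numbered pair of libraries correlate above 0.1, with r from -0.385 to 0.571 for the pairs. In STZ-A10 against STZ the pairs had r of 0.571, 0.044 and 0.429. A fit with the replicate number as a block gave 0 members past the threshold in STZ-A10 against A10 (Reg3b limma adjusted p = 0.0659) compared with 1 without it, and changed no other count. Pseudocount 0.1, no filter on low values and the Prss2 covariate also gave 0 members in STZ-A10 against A10, fitting the compared groups alone gave 3 (0.473% of all genes called), and the Prss2 covariate gave 1 in A10-FMT against STZ. With array weights 6 members passed in STZ-A10 against A10, 6 in A10-FMT against Con-FMT and 5 in A10-FMT against STZ. In the same fit 4 passed in STZ-A10 against STZ and 1 in Con-FMT against STZ. That fit called 27% to 66% of all genes in these tests. Its weights stopped before they converged, so its counts are given as values only. Leaving out each library in turn gave 0 to 2 members in STZ-A10 against A10, 0 to 4 in A10-FMT against Con-FMT and 0 to 1 in A10-FMT against STZ. The 2 came without STZ replicate 1 (0.0775% of all genes called), the 4 without A10-FMT replicate 2 (20.3% called), and the 1 was Reg3b without A10-FMT replicate 2 (0.062%), Con replicate 1 (0.643%) or STZ replicate 3 (0.674%). In A10 against Con, STZ-A10 against STZ and Con-FMT against STZ these fits gave 0. Reg3b adjusted p over its 27 alternatives ran from 3.05e-05 to 0.195 in STZ-A10 against A10 and from 2.12e-06 to 0.865 in A10-FMT against Con-FMT, with the same direction in all. Reg1 turned to 0.045 in A10-FMT against Con-FMT and to 0.339 in A10-FMT against STZ with the Prss2 covariate, and from -2.34 to 1.13 and from -2.18 to 1.29 when single libraries were left out, as Reg3d did in A10-FMT against STZ (-1.50 to 0.30). Requiring 1 RPKM in every library left no member to test. All 6 members stayed correlated with Prss2 in each fit that left out 1 library, values that also depend on the choice of members. With group means removed 5 did, by permutation p-values that are too small, and Reg3a was near the threshold. Of the median ratios to Prss2, 7 moved by more than their SD, all with Cpa1 or the exocrine sum as the denominator, which changes the scale of the ratio. The causes of the other changes were not tested. The unknown depth limits Reg3g and all values under 1 RPKM most.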
